A study of Homo sapiens with 6 samples.

Results

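Probes that both control and Ki-RAS transformed Caco-2 cells detected, and that Ha-RAS transformed cells did not, numbered 119 of 24350. They were chosen by 2 measured values, the detection score and the signal. Each had a score of at least 0.99 on both control and both Ki-RAS arrays, one below 0.99 on both Ha-RAS arrays, and a mean deposited signal of at least 120 intensity units over the 4 detecting arrays. The score compares a probe's brightness with negative controls and nears 1 for bright probes. The series holds 3 groups of 2 arrays each: untreated Caco-2 cells as control, the Ha-Ras transformed line CacoH2 and the Ki-Ras transformed line CacoK15, all grown below confluence without treatment. The labels give a rapid growth and an EMT (epithelial-to-mesenchymal transition) phenotype for 1 of the Ha-RAS samples, and rapid growth for both Ki-RAS samples. They call the control an adenocarcinoma control. Each RAS isoform is thus represented by a single line, so the comparisons set single lines side by side. The promoter of the RAS genes, their mutations and the clonality of the lines are not given in the sources used here. In these bulk samples, fewer cells with a transcript and less of it per cell cannot be told apart.

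RAS proteins are small GTPases of the inner cell membrane that pass growth factor signals to the RAF and MAP kinase cascade and to PI3-kinase. Ha-RAS and Ki-RAS share this core and differ in the tail that anchors them to the membrane. Caco-2 is a human colon adenocarcinoma line that forms a polarised epithelium, held together by adherens and tight junctions. In an epithelial-to-mesenchymal transition, cells give up such junctions, E-cadherin first among their known markers, and take on mesenchymal features.

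The arrays detected between 9245 and 10192 of the 24350 probes each, and the Ha-RAS arrays detected the most (10092 and 10192). The 119 probes were thus missing from the arrays with the most detections. Replicates of a line correlated at r = 0.987 to 0.993 across tested probes, which are not independent replicates. The raw signal of control array B was a median 1.2 times that of control array A over probes detected in control and Ki-RAS cells. The files pair no probe with a gene, none of the 119 IDs was found in the RefSeq gene table used here, and the labelled cell line could not be checked against marker genes. Probes are therefore given by ID. One was named from its record number alone, GI_14589887-S, a number known to be that of a RefSeq record of the E-cadherin transcript (CDH1). That identity comes from outside the files.

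On the Ha-RAS arrays the 119 probes lay in a narrow band close to background, whose upper edge was fixed by the score limit. Their raw signals ran from 56.8 to 88.7 on array A (median 74.1) and from 57.7 to 84.4 on array B (median 72.6). The dimmest detected probe stood at 88.8 and 84.5 on these arrays, and the background means inferred from the detection scores were 69.8 and 68. Probes detected on none of the 6 arrays had median signals of 70.3 and 68.6 there, so the typical signal of the 119 lay about 4 units higher. At or below the background mean plus 2 SD were 107 of the 119 on array A and 111 on array B. At or below the background mean itself were only 36 and 29. On control and Ki-RAS arrays the same probes reached 4034 to 6700.7 at their highest, with medians from 182 to 213. The lowest values there were 83.9 to 94.6, so the dimmest of the 119 were barely detected in those lines too. Inferred background means were 63 and 62.1 on control and 65.1 and 69.3 on Ki-RAS arrays, so the signal needed for detection differed between arrays. A raw signal of 83.9 was detected on control array A, while 88.7 was not on Ha-RAS array A. All 119 were lower on both Ha-RAS arrays than on the 4 others, which 21.1% of all tested probes were. The probes were chosen by these values, which are given as a description.

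**Figure D1:**
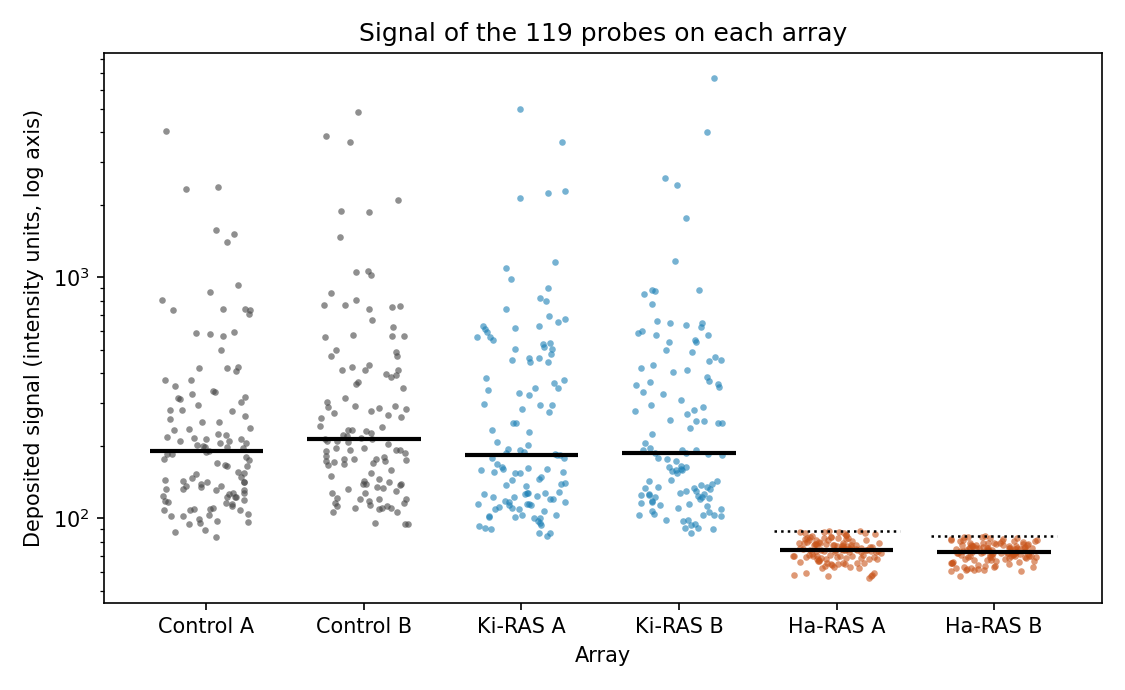
Deposited signal (intensity units, log axis) of the 119 probes on each of the 6 arrays, 1 point per probe, with black bars at the medians and dotted lines at the dimmest detected probe of each Ha-RAS array. Signals span 83.9 to 6700.7 on control and Ki-RAS arrays and stay at or below 88.7 on Ha-RAS arrays.

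The score below 0.99 covers different depths of loss. Of the 119 probes, 18 scored below 0.5 on both Ha-RAS arrays, 47 had a highest Ha-RAS score from 0.5 to below 0.9, and 54 reached 0.9 or more on at least 1 array. Only 15 reached 0.9 on both. The probe with E-cadherin's record number scored 0.034 and 0.68. The highest Ha-RAS score, 0.99 after rounding and just under the threshold, was shared by 5 probes, GI_40288196-S, GI_31542689-S, GI_4758685-S, GI_28416910-A and GI_28557780-S. GI_28557780-S was the dimmest of these, at 115.6 and 120.5 in control, 128.9 and 134.3 in Ki-RAS and 87.8 and 83.7 in Ha-RAS cells. Just outside, GI_9506556-S, GI_19718770-S and GI_10864649-S reached 0.991 on a single Ha-RAS array. At the signal threshold, GI_27262658-S (mean 120.1), GI_39930384-S (120.4) and GI_40255259-S (122.4) were just inside, and GI_13325056-S (119.7), GI_32483388-A (119.5) and GI_4503804-S (119.5) just outside.

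The brightest probe of the group was GI_21536453-S, with raw signals of 2362.1 and 3849.9 in control, 5000.1 and 6700.7 in Ki-RAS, and 86.7 and 72 in Ha-RAS cells. Next came GI_14589887-S, the E-cadherin record. E-cadherin is the calcium-dependent adhesion molecule of epithelial adherens junctions, which binds its like on the neighbouring cell and catenins inside. Its signals were 2317.3 and 3622.8 in control, 2278.2 and 2572.7 in Ki-RAS, and 57.8 and 70.5 in Ha-RAS cells. The raw signals of control and Ki-RAS cells overlapped. After normalization they did not, with log2 values of 11.45 and 11.71 in control and 11.21 and 11.34 in Ki-RAS cells. Both Ha-RAS values were those of an undetected probe.

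GI_9845517-S was brightest in control, at 4034 and 4861, with 551.5 and 576.5 in Ki-RAS and 66.7 and 61.9 in Ha-RAS cells. GI_19913425-S showed the reverse, at 108.5 and 94.7 in control, 3641.9 and 4015.1 in Ki-RAS and 69.9 and 78 in Ha-RAS cells. It thus met the rule mainly through Ki-RAS cells. GI_14916516-S held similar signals in both detecting lines, 1512.8 and 1856.1 in control against 2231.1 and 1758.8 in Ki-RAS, with 87.5 and 77 in Ha-RAS cells. GI_31543932-S stood at 195.7 and 222.2 in control, 2128.9 and 2420.5 in Ki-RAS, and 74.1 and 60.3 in Ha-RAS cells. Among these 4 probes the raw signals of control and Ki-RAS arrays overlapped for GI_14916516-S alone, whose normalized log2 values did not (10.78 and 10.74 against 11.17 and 10.83).

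The next 4 probes were all brighter in control than in Ki-RAS cells. GI_40288196-S had 1564.1 and 1879 in control, 688.8 and 657.5 in Ki-RAS, and 88.2 and 71.2 in Ha-RAS cells. GI_10190711-S had 1396.5 and 2087.7, then 447.1 and 421.8, then 82.6 and 75.6. For GI_34147376-S the signals were 864.7 and 1474 in control, 346.4 and 355.9 in Ki-RAS, and 72.3 and 71.6 in Ha-RAS cells. The tenth, GI_21071040-S, was the nearest of them to even, at 740.8 and 864.1 in control against 653.8 and 635.9 in Ki-RAS cells, with 69.5 and 73.6 in Ha-RAS cells. Of the 10 brightest, 8 had a mean of at least 1000 units. Below them, 15 probes had means from 500 to 1000, 45 from 200 to 500 and 51 from 120 to 200. The median mean was 230 units, where all 6901 probes that met the same detection and signal conditions in control and Ki-RAS cells had 317.

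**Figure D2:**
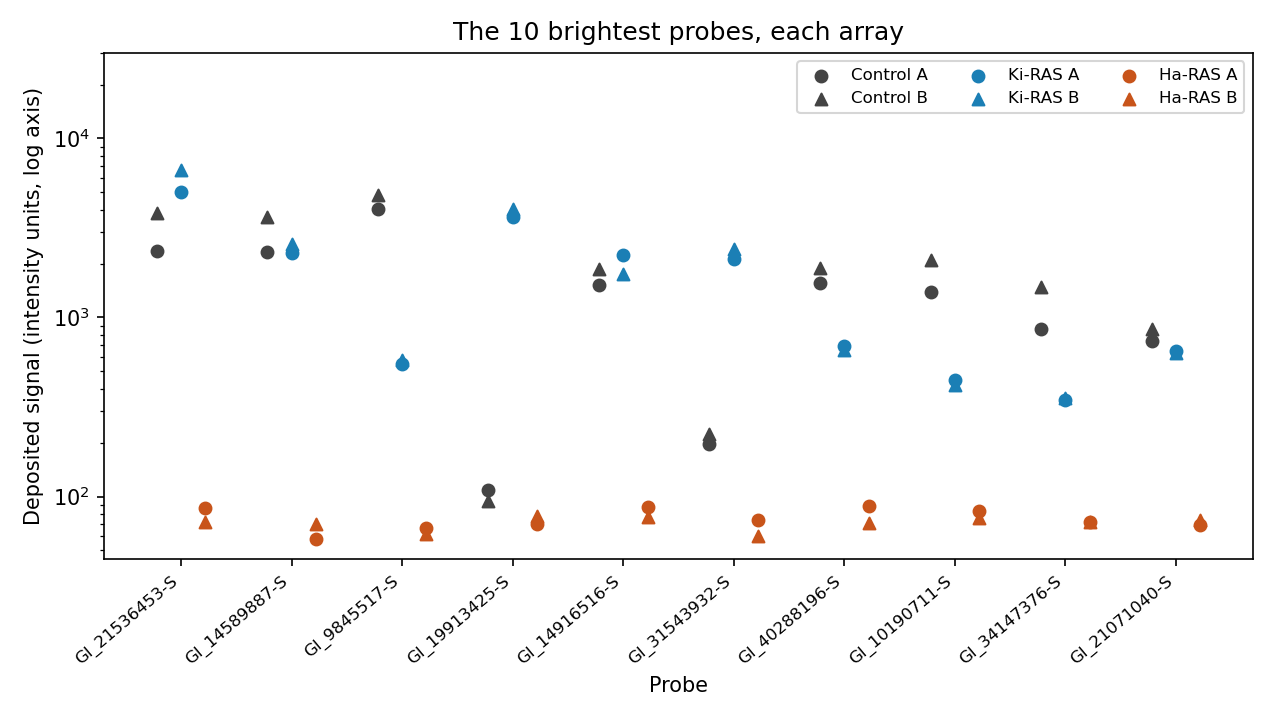
Deposited signal (intensity units, log axis) of the 10 brightest probes, with 1 symbol per array, circles for replicate A and triangles for replicate B, coloured by line. The Ha-RAS signals lie between 57.8 and 88.2 for all 10, while control and Ki-RAS trade places, from GI_9845517-S (4034 and 4861 against 551.5 and 576.5) to GI_19913425-S (108.5 and 94.7 against 3641.9 and 4015.1).

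Because no Ha-RAS array detected these probes, a fold over Ha-RAS cells is a lower bound. It sets the mean normalized intensity of the brighter line against, per Ha-RAS array, the higher of the dimmest detected signal and the probe's own. The bounds of control over Ha-RAS ran from 1.42 to 147 with a median of 4.66, and those of Ki-RAS over Ha-RAS from 1.21 to 188 with a median of 4.62. They hold for this background correction only. Without it they were 1.17 to 58.2 (median 2.45) and 1.08 to 74.3 (median 2.42). At least 4-fold brighter than in Ha-RAS cells were 69 probes in control and 67 in Ki-RAS cells, or 36 and 43 without background correction. Both bounds reached 4-fold for 41 probes and 16-fold for 9, or 17 and 3 without background correction. The E-cadherin probe was at least 94.9-fold brighter in control and at least 77.1-fold brighter in Ki-RAS than in Ha-RAS cells, or 37.7-fold and 30.8-fold without background correction. Also among the 9 were GI_21536453-S (at least 98.8-fold and 188-fold), GI_9845517-S (147-fold and 17.7-fold), GI_14916516-S (53.9-fold and 63.7-fold) and GI_40288196-S (55.5-fold and 21.2-fold). Without background correction these were 39.2 and 74.3, 58.2 and 7.52, 21.7 and 25.5, and 22.3 and 8.9. The others were GI_21071040-S, GI_24308393-S, GI_9966860-S and GI_13124893-S, with bounds from 16 to 24.3, or 6.87 to 10.1 without background correction.

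**Figure D3:**
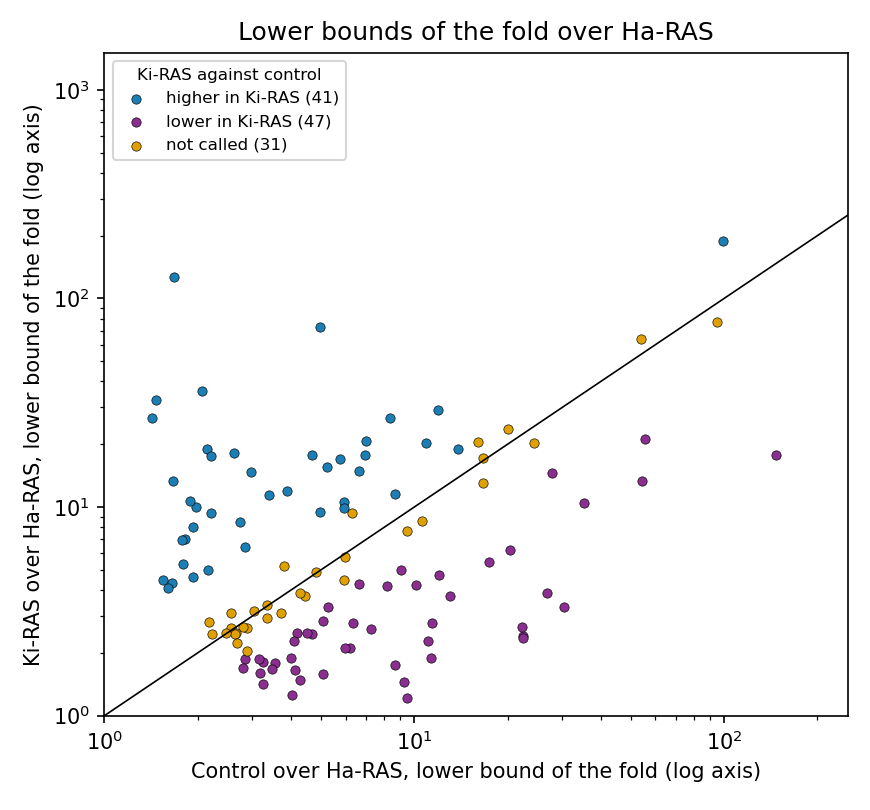
Lower bound of the fold over Ha-RAS cells for each of the 119 probes, control on the x axis and Ki-RAS on the y axis (both log axes), coloured by the test of Ki-RAS against control, with a line of equality. With the background correction used, the bounds reach 147 for control and 188 for Ki-RAS, and many probes have a high bound for one line and a bound near 1 to 2 for the other.

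For part of the group the word lost holds against a single line. The dimmer of the control and Ki-RAS means lay below 120 units for 46 probes. Of these, 21 were dimmer in control, with bounds of control over Ha-RAS of 1.42 to 2.22 (1.17 to 1.48 without background correction), and 19 of them were called higher in Ki-RAS cells. The other 25 were dimmer in Ki-RAS, with bounds of Ki-RAS over Ha-RAS of 1.21 to 2.41 (1.08 to 1.56 without), and 23 were called lower in Ki-RAS cells. In contrast, both means reached 200 units for 34 probes, 500 for 9 and 1000 for 3. Those 3 were GI_21536453-S, GI_14589887-S and GI_14916516-S, singled out here by their values.

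The difference between Ki-RAS and control cells was no criterion of the choice, but detection and mean signal on these arrays were. A probe dim in 1 line could reach the minimum only through the other. Of the 46 probes with a dimmer mean below 120 units, 19 were called higher and 23 lower. The same conditions held for the 6901 comparable probes, and the shares below are a description of a chosen group. The difference was tested with limma over the 10848 probes that at least 1 line detected on each of its arrays. All 119 were among these, through control and Ki-RAS cells alike. Of the 119, 41 were higher and 47 lower in Ki-RAS cells at an adjusted p below 0.05, together 88 or 73.9%. Over all probes tested 55.1% were called, 27.9% higher and 27.2% lower. Over the 6901 comparable probes 55.6% were called, 28.4% higher and 27.2% lower. The contrast with other probes grew with the size of the change. At least 2-fold were 65 of the 119 (54.6%), where all probes tested had 24.2% and the 6901 had 20.8%. At least 4-fold were 27 (22.7%), beside 6.96% and 3.94%. The median size of the difference was 1.2 on the log2 scale, against 0.52 over all probes tested. Its signed median was -0.14, against 0.008. Under a common median in place of quantile normalization it was -0.27, and without Ki-RAS replicate B -0.24, both times with fewer probes higher than lower. On the normalized scale the arrays of the 2 lines did not overlap for 103 of the 119 probes, 47 higher and 56 lower in Ki-RAS cells, where 76.0% of all tested probes did not overlap, 38.5% higher and 37.5% lower. For the 47 higher ones, both Ha-RAS arrays also lay below both control arrays, a pattern of 8.87% of all tested probes in which the Ha-RAS side was fixed by the choice of the 119. The share called was above that of comparable probes at each level of brightness. It was 75% against 52% at means of 1000 and more (6 of 8 probes) and 66.7% against 56.4% from 500 to 1000 (10 of 15). From 200 to 500 it was 88.9% against 58.9%, and from 120 to 200 62.7% against 52.7%. The levels are means over control and Ki-RAS arrays, so they do not match the signal in the dimmer line. GI_19913425-S, at 108.5 and 94.7 in control, counted among those of 1000 and more.

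**Figure D4:**
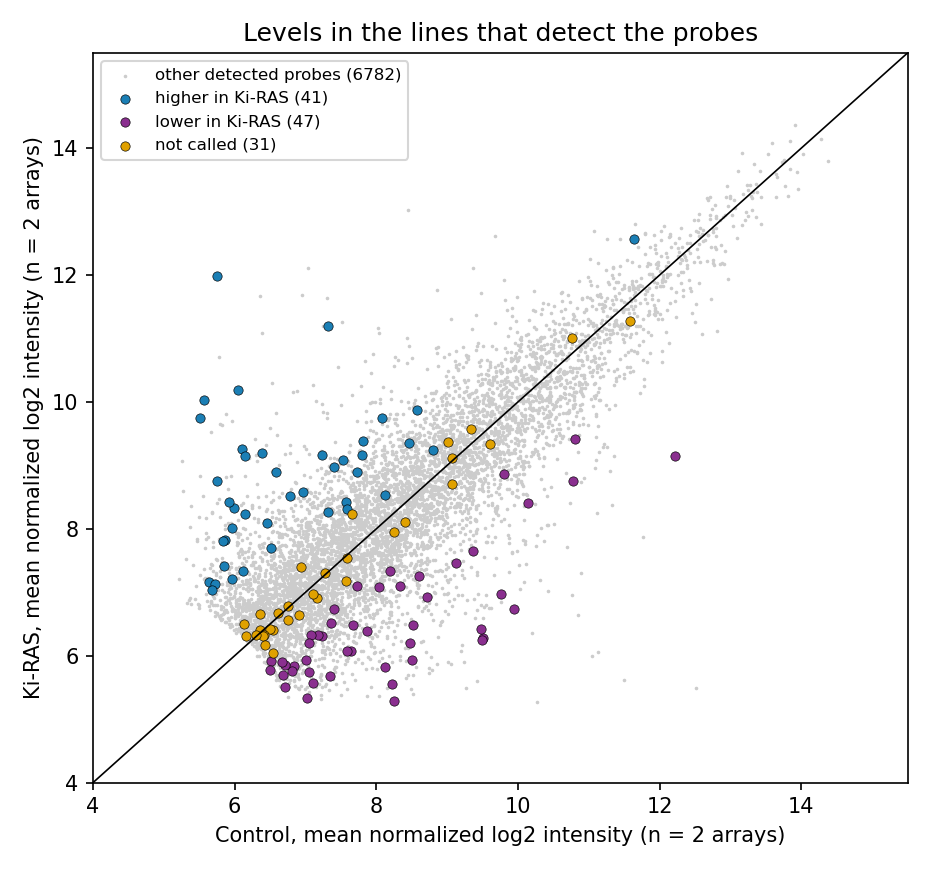
Mean normalized log2 intensity (n = 2 arrays each) in control (x axis) and Ki-RAS cells (y axis), with the 119 probes in colour by the limma call, the other 6782 probes detected in both lines in grey, and a line of equality. The 41 higher and 47 lower probes lie on either side of the line, from within the grey cloud (smallest called log2 differences 0.41 and -0.6) to its outside, and the 31 not called lie between -0.5 and 0.57 of it.

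Of the probes higher in Ki-RAS cells, GI_19913425-S had the highest log2 difference, 6.23 ± 0.21 (SE, n = 2 arrays per line, 5.29 without background correction). GI_14110398-S was higher by 4.46 ± 0.19 (3.49 without background correction), with 94.7 and 95.8 raw units in control and 1153.6 and 882.5 in Ki-RAS cells. GI_40288289-S, at 83.9 and 105.9 in control, stood at 899.6 and 776.2 in Ki-RAS cells, a log2 difference of 4.23 (3.24 without background correction). GI_24308188-S went from 117.7 and 109.9 to 1088.9 and 1162.7, a difference of 4.13 (3.37 without background correction). GI_31543932-S followed with 3.88 ± 0.16 (limma adjusted p = 2.46e-08), or 3.51 without background correction. For all 5 the Ki-RAS arrays lay above the control arrays without overlap, and 4 of the 5 were at or below 117.7 units in control, close to detection. Those 4 met the signal minimum only through Ki-RAS cells, so the choice favoured a difference in this direction. The bounds of control over Ha-RAS were 1.42 to 2.06 for those 4, and 4.97 for GI_31543932-S (1.17 to 1.42, and 2.56, without background correction).

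The probes lowest in Ki-RAS cells relative to control began with GI_16418396-S, at 735.7 and 749.6 raw units in control and 126.4 and 112.2 in Ki-RAS cells. Its log2 difference was -3.25 ± 0.18 (SE, -2.61 without background correction). GI_27436979-S fell from 734.4 and 756.5 to 113.9 and 125.9, a difference of -3.23. GI_37595562-S fell from 924.7 and 1048.3 to 153.6 and 137.2, a difference of -3.20. GI_9845517-S had -3.06 ± 0.15 (limma adjusted p = 7.24e-08), and GI_7705754-S, at 704.7 and 768.1 against 122.1 and 132.2, also had -3.06. All 5 had lower signals than control on every array of both RAS lines and stayed detectable in Ki-RAS cells. Apart from GI_9845517-S, which remained above 500 units in Ki-RAS cells, they kept at most 153.6. The Ki-RAS means of GI_16418396-S and GI_27436979-S, 119.3 and 119.9 units, were below the signal minimum. These probes met it only through control cells, so the choice favoured a difference in this direction. The level in the line that kept less of the transcript was therefore low for most of the strongest changes in either direction.

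Between control and Ki-RAS cells, 31 probes did not pass the test, with log2 differences from -0.5 to 0.57. The E-cadherin probe was the brightest of them (log2 difference -0.30 ± 0.17 SE, limma adjusted p = 0.155), followed by GI_14916516-S (0.24 ± 0.17, limma adjusted p = 0.266) and GI_21071040-S (-0.26 ± 0.15, limma adjusted p = 0.165). A p above the threshold does not show that the levels were equal. Of the 31, 13 had both bounds over Ha-RAS at 4-fold or more and 6 at 16-fold or more. That makes 6 of the 9 probes that reached 16-fold over Ha-RAS in both lines. That set changes with the processing. Without background correction 7 of the 17 probes at 4-fold and 2 of the 3 at 16-fold were not called. Among the 3 others of the 9, GI_21536453-S was higher in Ki-RAS cells by 0.93 ± 0.20 (limma adjusted p = 0.00271), while GI_9845517-S and GI_40288196-S were lower, the latter by -1.39 ± 0.18 (limma adjusted p = 0.000111).

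The suffix of a probe ID tells what the probe covers, where by the manufacturer's convention S stands for a single transcript, A for all isoforms and I for a particular isoform. Of the 119, 100 were S (84%), 15 were A (12.6%) and 4 were I (3.36%). Over all 24350 probes the shares were 79.1%, 8.96% and 12%, and over the 6901 comparable probes 83.4%, 12.1% and 4.54%. The composition was close to that of the comparable probes, and fewer I probes than on the whole array were found in both. The A probes had a median mean signal of 259 units and the S probes 226. Of the 15 A probes 6 were higher, 6 lower and 3 not called between Ki-RAS and control cells, and of the 4 I probes 1 was lower and 3 were not called.

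Record numbers registered side by side can belong to related transcripts, and they were compared as numbers only. Probe GI_27894333-A, at 352.3 and 473.4 in control, 101.4 and 109.1 in Ki-RAS and 72.8 and 63.1 in Ha-RAS cells, shares its number with GI_27894333-I. That isoform probe, which was not among the 119, had 205 and 221.7 in control and was undetected in both RAS lines, with 62.5 and 68.3 in Ki-RAS cells. The nearby GI_27894331-S, a member, ran the other way between the detecting lines, at 136.3 and 134.2 in control and 296.4 and 288.3 in Ki-RAS cells. GI_31563523-A and GI_31563522-I were members with adjacent numbers, at 282.7 and 218.7 against 216.1 and 191.4 in control. Neither passed the test between Ki-RAS and control cells (limma adjusted p = 0.0797 and 0.941). With the replicate letter as a block GI_31563523-A was called. The third pair was GI_31543932-S with GI_31543930-S, which had 295.9 and 398 in control and 97.3 and 90.1 in Ki-RAS cells. Its log2 difference of -2.67 was opposite in sign to that of its neighbour.

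Some of the other isoform and all-isoform members had neighbours that Ha-RAS cells kept. GI_34304346-A fell from 585.2 and 804.9 in control to 208.3 and 249 in Ki-RAS cells, with 76.3 and 75.5 in Ha-RAS cells. Its neighbour GI_34304345-S was at 320.5 and 510.1 in control and 1131 and 885.9 in Ha-RAS cells. GI_34304343-A was also detected on all 6 arrays, but GI_34304348-I, at 112.8 and 134.2 in control, was undetected in both RAS lines. GI_24797104-I, at 375 and 575.7 in control and 75.6 and 78.3 in Ha-RAS cells, stood beside GI_24797105-S. That neighbour had 1082.2 and 1116.9 in control and 2005.7 and 2042.7 in Ha-RAS cells. Its other neighbour, GI_24797102-A, was detected in Ki-RAS cells only, at 112.7 and 118.1. GI_19115957-A had 132.1 and 192.4 in control, 382.5 and 366.5 in Ki-RAS and 68.8 and 74.7 in Ha-RAS cells, and the I probe of the same number was undetected on all 6 arrays. Its neighbour GI_19115959-S was detected on all 6, with 120.7 and 103.5 in Ha-RAS cells. The remaining named ones were GI_29029609-A, GI_28144892-A, GI_29501806-I and GI_44680134-A. Their means were 529.1, 344.6, 229.9 and 190.9 units. No neighbour of theirs within 3 numbers was detected on both arrays of Ha-RAS cells. Whether any of these neighbours come from the same gene was not tested.

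The same rule with the RAS lines exchanged found 160 probes that control and Ha-RAS cells detected and Ki-RAS cells did not, 2.21% of the 7230 that could have met it, against 1.72% for the 119. Both counts share the control arrays. Of the 160, 76.2% differed between Ha-RAS and control cells and 51.2% did so at least 2-fold, where the 7230 had 52.6% and 20.1%. A raised share of changed probes in the line that kept detection was thus measured for both groups, and is not particular to probes undetected in Ha-RAS cells. The median signal over the 4 detecting arrays was 230 units for the 119 and 173 for the 160. A further 176 probes were detected in control cells and in neither RAS line, with the same signal minimum on control arrays. Of these, 82.4% were S, 9.66% A and 7.95% I, and of the 160, 84.4%, 11.9% and 3.75%.

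**Figure D5:**
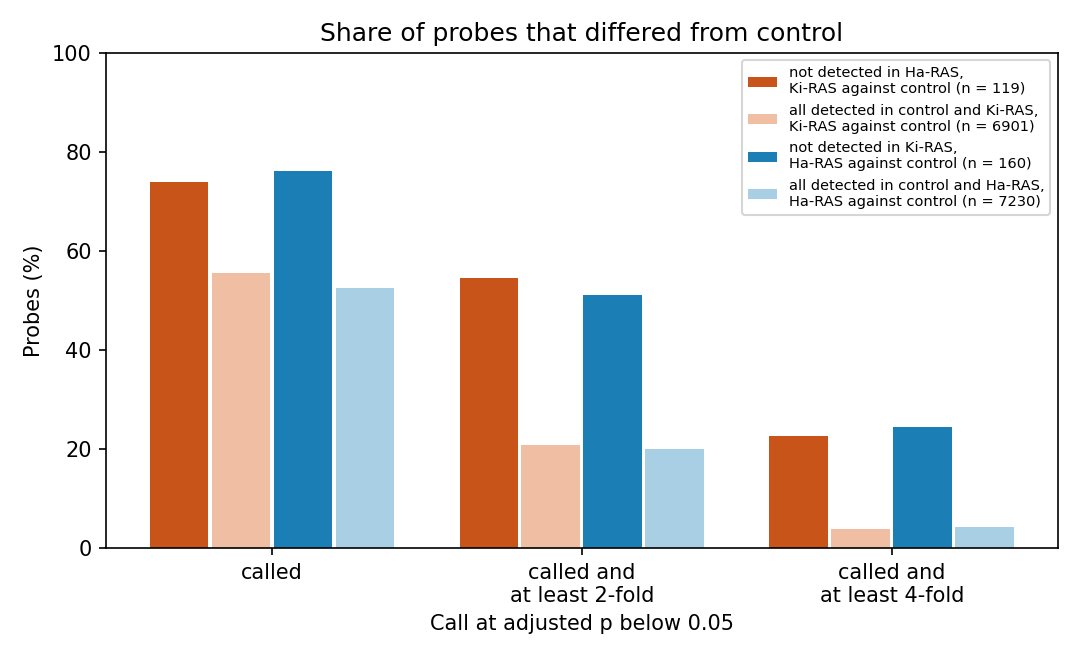
Percent of probes called against control (limma, adjusted p below 0.05), alone and with a 2-fold or 4-fold minimum, for the 119 probes and the 6901 comparable ones (Ki-RAS against control), and for the 160 probes not detected in Ki-RAS cells and their 7230 comparable ones (Ha-RAS against control). The group without detection in one RAS line has the higher share in each pair, 54.6% against 20.8% and 51.2% against 20.1% at 2-fold.

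The number of beads behind each signal was not part of the rule. The 119 probes had a median of 43 beads on Ha-RAS arrays and 42 on control and Ki-RAS arrays, and all GI probes had 42. The lowest bead number was 19 on a Ha-RAS array and 11 on another array. These are medians, and single probes differed. GI_7706450-S had 19 and 22 beads on the Ha-RAS arrays. GI_40288196-S, among the 9 with both bounds at 16-fold, had 11 on control A, 14 on Ki-RAS A and 22 on Ha-RAS A. The deposited spread between beads was a median 5.7% of the signal for the 119 on Ha-RAS arrays, and 5.95% for probes undetected on all arrays. On control and Ki-RAS arrays it was 5.11% for the 119 and 4.55% for other comparable probes.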

How the data were processed

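Biotin-labelled amplified RNA from the 6 samples was measured on Illumina bead arrays (labels' protocols). Deposited values are, per the file headers, a mean signal and a spread between beads, both intensities on a linear scale, a bead number and a detection score. The authors' software was BeadStudio 1.5.13, per the submitters' processing notes, with normalization set to none in the series' design text. Any background subtraction and the genome build are not given in the sources used here. One table of the whole series held the same intensities (0 differing cells), and 4 rows with no GI number were left out.

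The rule was applied to the deposited signals and scores. For the fits, background was corrected with nec of limma 3.58.1 (R 4.3.3, offset 16, detection p as 1 minus the score), followed by log2 and quantile normalization. The fit had 3 group means over all 6 arrays (3 residual and 7.1 prior degrees of freedom), eBayes, two-sided, and Benjamini-Hochberg adjustment over 10848 probes. P-values measure the spread between these samples, which the design text calls biological replicates. Precision is limited by the number of arrays. The procedure was also run on simulated data in which far fewer probes changed than were called here, so that run does not bear on these counts.

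Probes named were the 10 brightest, the 5 highest and 5 lowest called differences, those next to the thresholds, and up to 10 A or I probes with a near number. GI_14589887-S fell under this and under a certain identity. Further probes were named for their bounds or as neighbours after their values were seen. The members, lists and rules were chosen with earlier results of these data known. Ha-RAS contrasts were used by the rule and were not tested. The marker lists could not be applied without gene names.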

Additional observations from a re-analysis of the deposited data

Results flagged for a closer look

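For 47 of the 119 probes both Ki-RAS arrays lay above and both Ha-RAS arrays below both control arrays. The step down to Ha-RAS could be small. Among the 119, 21 were dimmer in control with a mean below 120 units there, and 19 of these were called higher in Ki-RAS cells. For the 21 the bound of control over Ha-RAS was 1.42 to 2.22 (1.17 to 1.48 without background correction). The difference between the RAS lines was not tested, since the choice of the probes fixed the Ha-RAS side: all 119 were lowest on the Ha-RAS arrays. Over all probes tested, Ki-RAS arrays above and Ha-RAS arrays below control had a share of 8.87%. No group had enough arrays for a check of single samples far from the others.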

How the results depend on the processing

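The number of probes was 65 with a Ha-RAS score below 0.9, 193 with no signal minimum and 68 with a minimum of 200 units. With 1 array left out of the rule it was 112 to 145, sharing 106 to 119 with the 119, and it was lowest without control replicate B. The Ki-RAS against control counts of 88 called, 41 higher and 47 lower stayed within 1.5 times of these values under every other background correction, normalization, filter, set of arrays, block and threshold run, except that 31 were lower with a 2-fold minimum. No called probe changed direction. The median log2 difference was -0.27 under a common median, where that of all probes tested was -0.095, and with 1 array left out it was -0.24 (without Ki-RAS replicate B) to -0.14. Added after the data were seen, the count with at least 2-fold change was 51 without background correction (42.9%, beside 13.4% of all probes tested), 75 under a common median and 65 to 69 with 1 array left out. Without background correction 36 and 43 probes had a bound of at least 4-fold in control and Ki-RAS over Ha-RAS cells. Of 448 alternative values for named probes, 445 kept their side of the threshold. The other 3 were for GI_31563523-A, which was not called in the main fit. Its log2 differences there were 0.47 without background correction, 0.57 with the replicate block and 0.98 without control replicate A. With the replicate block 88 probes were called, 87 in common. The letters A and B mark no pairing in the labels, and deviations of the replicates correlated at 0.104 between control and Ki-RAS and at -0.177 and -0.173 for the pairs with Ha-RAS. Signals close to background limit the folds, and 2 arrays a line limit the spread estimate.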
